A study of Homo sapiens with 24 samples.

Results

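Selected genes that hold back programmed cell death were followed in 2 human multiple myeloma cell lines treated with CX-5461, panobinostat or both. They are 9 genes: the BCL2-type guardians BCL2 (NCBI gene 596), MCL1 (4170), BCL2L1 (598), BCL2A1 (597) and BCL2L2 (599), the inhibitor of apoptosis genes BIRC5 (332), XIAP (331) and BIRC2 (329), and CFLAR (8837). The set is a list of symbols with no threshold on measured values, drawn up with earlier results of these data known, and all 9 have a row in both deposited count tables, out of 28395 genes. The groups of JJN3 cells were 500 nM CX-5461 with 50 nM panobinostat, panobinostat alone, CX-5461 alone and vehicle, each for 24 h. MM1.S cells had the same 4 groups. Each group had 3 libraries, 24 in all. CX-5461 inhibits RNA polymerase I, which transcribes the ribosomal RNA genes, and panobinostat inhibits histone deacetylases. Whether the replicates of a group were grown separately is not in the labels, and the p-values reflect only how far these libraries spread, which may be technical.

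Cells that commit to mitochondrial apoptosis do so when BAX and BAK1 open the outer mitochondrial membrane and release cytochrome c. BCL2, MCL1, BCL2L1 (BCL-xL), BCL2A1 (BFL-1) and BCL2L2 (BCL-w) prevent this by binding BAX, BAK1 and the BH3-only proteins that trigger them. Downstream, XIAP binds and inhibits caspases directly, BIRC2 (cIAP1) is a ubiquitin ligase that acts in TNF receptor and NF-kB signalling, and BIRC5 (survivin) is a subunit of the chromosomal passenger complex of dividing cells. CFLAR (c-FLIP) blocks caspase-8 at death receptors. Myeloma cells are known for their dependence on MCL1, which plasma cells also need, and some myelomas depend on BCL2.

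Reads were taken near the 3′ end of polyadenylated transcripts, so a count reflects transcript number and not transcript length, and levels are compared here within a gene only. Totals per library lay between 4751893 and 7305069 counts. Values are in CPM, counts scaled to a common library total, after TMM scaling over all 24 libraries, and are shares of a library's mRNA: fewer transcripts per cell and a larger pool of other transcripts cannot be told apart. Of 8 plasma cell and myeloma markers, the summed level was 365 to 416 CPM with the combination, 464 to 616 CPM with panobinostat, 4132 to 4270 CPM with CX-5461 and 5445 to 5665 CPM with vehicle in MM1.S, and 704 to 778, 1148 to 1257, 1646 to 1829 and 1781 to 1929 CPM for the same treatments in JJN3. All 8 had counts in every group, but CD38 had only 1 to 3 over the 3 libraries of each JJN3 group. In JJN3 the sum fell although PRDM1 was higher, at 65.0 CPM with the combination and 62.5 CPM with panobinostat, against 47.1 CPM with vehicle. Whether the fall of the sums has a part in the changes of the 9 genes was not tested. The 12 markers of other cell types summed to between 1.49 and 30.4 CPM. In JJN3, libraries with the same replicate number deviated from their group means together, with a correlation across genes between 0.201 and 0.485 in all 18 pairs. JJN3 results for the 9 genes are therefore also given with replicate number as a block, and without the 4 libraries numbered 2, where this changes the call. Other genes, read from lists by function, were not followed under these 2 settings. The 2 lines were deposited as separate tables, so line cannot be told apart from table or sequencing run.

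Without drug the lines already differed in most of these genes, as they did in most of all genes tested. Adjusted p-values throughout are from edgeR's quasi-likelihood test with Benjamini-Hochberg adjustment over all genes tested, and a gene is called higher or lower at an adjusted p under 0.05. Between vehicle JJN3 and vehicle MM1.S, 3 members were higher and 4 were lower in JJN3 out of 9 tested, where 30.2% of all tested genes were higher and 33.5% lower. BCL2 was at 164, 159 and 152 CPM in the 3 JJN3 vehicle libraries, against 67.6, 75.1 and 66.1 CPM in MM1.S. The log2 difference was 1.19 ± 0.14 (SE, adjusted p = 2.11e-08). MCL1 was at 729.8, 942 and 760.0 CPM in JJN3, against 626, 623 and 582 CPM in MM1.S, a log2 difference of 0.41 ± 0.11 (adjusted p = 0.00132). For neither gene did the lines overlap, and JJN3 was the higher line for both.

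BCL2L1 went the other way: 2.99, 3.60 and 2.88 CPM in JJN3 vehicle libraries, against 33.4, 35.2 and 35.0 CPM in MM1.S, a log2 difference of -3.44 ± 0.23 (adjusted p = 2.98e-14). BCL2A1 was not detected in JJN3 vehicle cells, with 0 counts in 3 libraries, against 69 counts in MM1.S. That is at least 24.1-fold lower, taking 3 counts over the group as the floor. XIAP (-1.16 ± 0.18, adjusted p = 1.23e-06) and CFLAR (-1.01 ± 0.15, adjusted p = 8.18e-07) were also lower in JJN3 on the log2 scale. BIRC5 was at 205 ± 9.44 CPM in JJN3 and 206 ± 13.6 CPM in MM1.S (SD, n = 3 each), with overlapping libraries and a log2 difference of -0.01 ± 0.13. BIRC2 was at 105 ± 7.60 and 90.6 ± 4.85 CPM in JJN3 and MM1.S, a log2 difference of 0.21 ± 0.13 that was not called (adjusted p = 0.155). It was called with replicate number as a block (0.20, adjusted p = 0.0471, where 32.5% of genes were higher and 36.4% lower) and without the number 2 libraries of JJN3 (0.31, adjusted p = 0.0220). BCL2L2 was called higher in JJN3 (2.43 ± 0.83, adjusted p = 0.0116) from 24 and 4 summed counts. Without replicate 2 of JJN3 vehicle, which held 14 of the 24, its log2 difference was 1.78 with an adjusted p of 0.107.

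**Figure D1:**
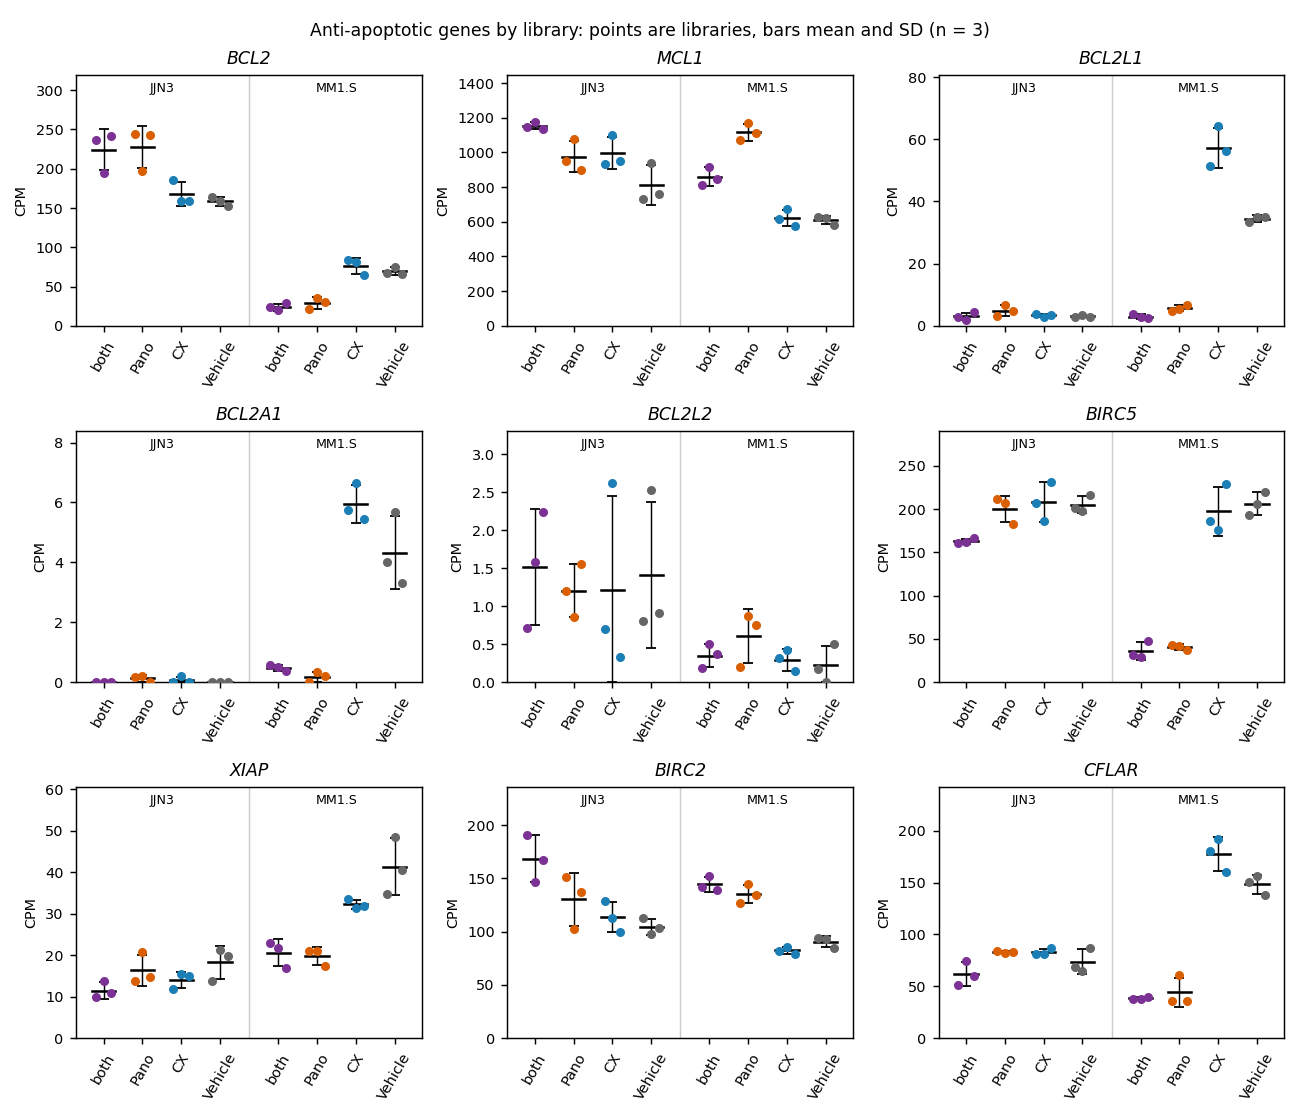
Level of each of the 9 genes in CPM (linear axes from 0, one scale per panel) in every library, with groups given as both drugs, panobinostat (Pano), CX-5461 (CX) and vehicle, JJN3 left and MM1.S right. Points are libraries and bars show the mean and SD of 3. In MM1.S, the libraries with panobinostat lie below vehicle for BCL2, BCL2L1, BCL2A1, BIRC5, XIAP and CFLAR and above it for MCL1 and BIRC2, while in JJN3 BCL2L1 stays between 1.98 and 6.67 CPM.

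Panobinostat lowered most of this set in MM1.S. In JJN3 it raised 1 of 8 members tested, near the 15.0% of all genes that rose, and lowered none, where 10.9% fell. With replicate number as a block it raised 3 there, where 22.4% of genes rose and 19.5% fell. In MM1.S, 2 of the 8 members tested rose with panobinostat (MCL1 and BIRC2) and 6 fell (BCL2, BCL2L1, BCL2A1, BIRC5, XIAP and CFLAR), where 36.9% of all 12030 tested genes rose and 32.9% fell. The median log2 change over the 8 was -1.49, against 0.07 over all tested genes. With the combination, 2 rose and 6 fell, the same genes in the same directions, where 37.0% of genes rose and 33.2% fell, and the median was -1.74, against 0.06. These treatments share the vehicle libraries. CX-5461 alone raised 1 member in MM1.S (BCL2L1), where 9.68% of genes rose and 7.06% fell. BCL2L2, with between 4 and 10 counts per MM1.S group, was too low to test in that line.

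In JJN3, 1 of 8 members tested rose with panobinostat (BCL2) and none fell, where 15.0% of 11411 tested genes rose and 10.9% fell. With replicate number as a block, 3 rose (BCL2, MCL1 and BIRC2), where 22.4% of genes rose and 19.5% fell. With the combination, 3 rose (BCL2, MCL1 and BIRC2) and 2 fell (BIRC5 and XIAP), where 21.0% of genes rose and 18.2% fell. The block added CFLAR to those that fell, where 27.6% of genes rose and 25.9% fell. CX-5461 alone changed 0 of 8 members in JJN3, and 0% of all genes passed. Over all genes 633 had an unadjusted p under 0.05, DESeq2 called 19 and limma-voom 0. With the block, 1 member passed (MCL1), where 0.605% of genes rose and 0.771% fell. BCL2A1 had between 0 and 2 counts per JJN3 group and was not tested there.

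**Figure D2:**
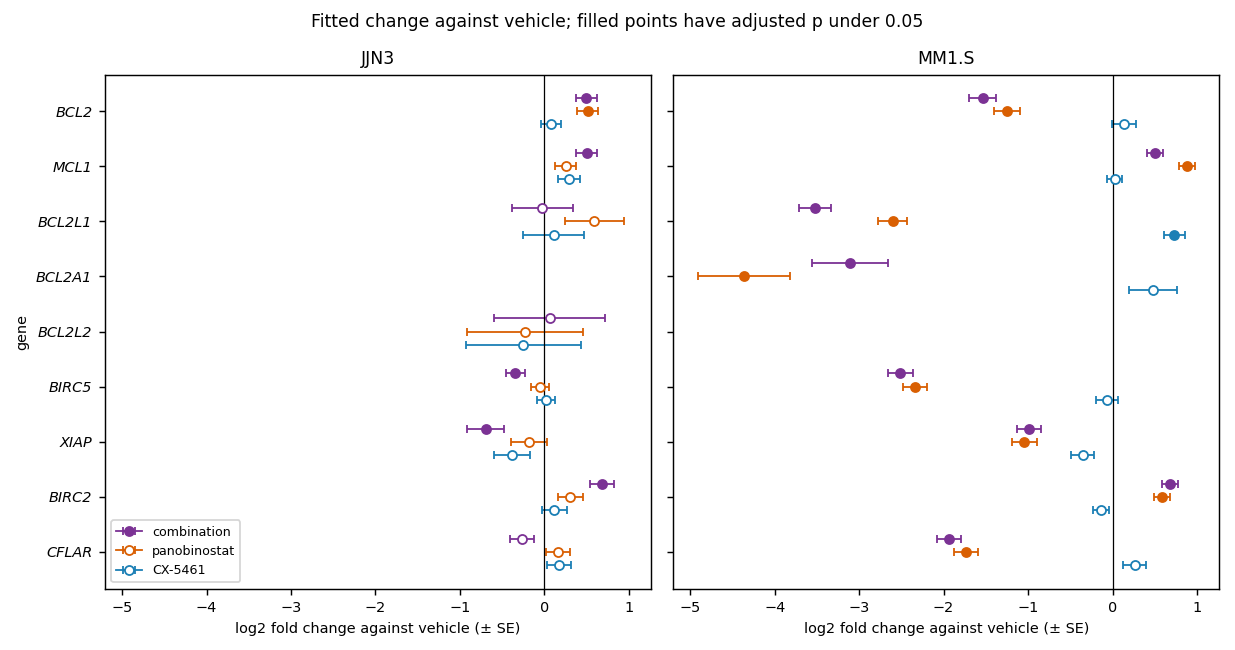
Log2 fold change against vehicle with its SE, from the fit within each line, for the combination, panobinostat and CX-5461 (JJN3 left, MM1.S right), with filled points where the adjusted p was under 0.05. BCL2L1 in MM1.S lies at -3.52 with the combination, -2.60 with panobinostat and 0.73 with CX-5461, while every JJN3 point lies between -0.69 and 0.68.

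BCL2 moved in opposite directions in the 2 lines. In JJN3 its level was 236, 195 and 242 CPM with the combination, 244, 197 and 243 CPM with panobinostat, and 164, 159 and 152 CPM with vehicle. Each panobinostat-treated library was above every vehicle library, and the log2 change was 0.50 ± 0.12 with the combination (adjusted p = 0.00405) and 0.51 ± 0.12 with panobinostat (adjusted p = 0.00566). In MM1.S it was 23.6, 19.6 and 28.4 CPM with the combination, 21.1, 35.6 and 30.2 CPM with panobinostat, and 67.6, 75.1 and 66.1 CPM with vehicle. Here every panobinostat-treated library was below every vehicle library, and BCL2 fell by 1.53 ± 0.16 with the combination (adjusted p = 8.43e-09) and by 1.25 ± 0.16 with panobinostat (adjusted p = 1.85e-07) on the log2 scale. CX-5461 alone gave 168 ± 15.1 CPM in JJN3 and 76.1 ± 10.3 CPM in MM1.S, both overlapping vehicle, at log2 changes of 0.08 ± 0.12 and 0.13 ± 0.14. The panobinostat effect was 1.78 ± 0.21 log2 units higher in JJN3 than in MM1.S (adjusted p = 6.58e-08) and the combination effect 2.05 ± 0.21 higher (adjusted p = 5.50e-09).

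MCL1, a guardian whose protein is short-lived, rose with panobinostat in MM1.S. Its level there was 810.5, 918 and 848 CPM with the combination, 1070.0, 1168 and 1112 CPM with panobinostat, 614, 671 and 577 CPM with CX-5461, and 626, 623 and 582 CPM with vehicle. The combination and panobinostat groups overlapped neither vehicle nor each other, while CX-5461 alone overlapped vehicle (log2 change 0.03 ± 0.09, adjusted p = 0.893). The log2 rise was 0.50 ± 0.09 with the combination (adjusted p = 2.81e-05) and 0.88 ± 0.09 with panobinostat (adjusted p = 5.26e-09). The combination was 0.38 ± 0.09 below panobinostat alone (adjusted p = 0.0166). That call was lost without panobinostat replicate 2 (adjusted p = 0.0713) or 3 (0.0644) and without combination replicate 1 (0.105) or 3 (0.0718).

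In JJN3, MCL1 was at 1146, 1177 and 1138 CPM with the combination, 948, 1075 and 901 CPM with panobinostat, 931, 1099.9 and 951 CPM with CX-5461, and 729.8, 942 and 760.0 CPM with vehicle. The combination libraries were above those of every other JJN3 group, and the single-drug groups overlapped vehicle through its replicate 2. The log2 change was 0.50 ± 0.13 with the combination (adjusted p = 0.00465), 0.25 ± 0.13 with panobinostat (adjusted p = 0.154) and 0.29 ± 0.13 with CX-5461 (adjusted p = 0.851). With replicate number as a block the 2 single-drug changes were called, at 0.26 for panobinostat (adjusted p = 0.00679) and 0.29 for CX-5461 (adjusted p = 0.0411). The panobinostat effect on MCL1 was 0.61 ± 0.15 log2 units lower in JJN3 than in MM1.S (-0.61, adjusted p = 0.00213). The combination effect differed by 0.02 ± 0.15 (adjusted p = 0.975), with an observed log2 change of 0.50 in both lines.

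BCL2L1 was the member that CX-5461 and panobinostat moved in opposite directions in MM1.S. Its level was 3.75, 2.80 and 2.37 CPM with the combination, 4.78, 5.38 and 6.70 CPM with panobinostat, 51.5, 64.2 and 56.1 CPM with CX-5461, and 33.4, 35.2 and 35.0 CPM with vehicle. None of the 4 groups overlapped another. BCL2L1 rose by 0.73 ± 0.13 with CX-5461 (adjusted p = 0.000205), and fell by 2.60 ± 0.17 with panobinostat (adjusted p = 8.57e-13) and by 3.52 ± 0.19 with the combination (adjusted p = 1.73e-14), all on the log2 scale. The combination was 0.92 ± 0.25 below panobinostat alone (-0.92, adjusted p = 0.0306). Of the 8 members, BCL2L1 and MCL1 were the 2 called lower and 0 were higher in that comparison, where 2.44% of genes were higher and 1.65% lower (401 higher and 150 lower when scaled by library size alone, against 293 and 198). The BCL2L1 call was lost without panobinostat replicate 2 (adjusted p = 0.0727) or 3 (0.162), without combination replicate 2 (0.0735) or 3 (0.140), and by limma-voom (0.0824).

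In JJN3, BCL2L1 had between 54 and 74 counts per group. Its level was 3.09 ± 1.16 CPM with the combination, 4.86 ± 1.80 CPM with panobinostat, 3.41 ± 0.423 CPM with CX-5461 and 3.16 ± 0.387 CPM with vehicle (SD, n = 3 each), and all groups overlapped vehicle. With CX-5461 its log2 change was 0.11 ± 0.36 (adjusted p = 0.994), which at this depth was not separated from the rise in MM1.S (difference -0.62 ± 0.34, adjusted p = 0.531). The vehicle libraries of JJN3 fell within the range of MM1.S under the combination, which averaged 2.97 ± 0.704 CPM. The panobinostat effect was 3.20 ± 0.35 log2 units higher in JJN3 than in MM1.S (adjusted p = 2.01e-08) and the combination effect 3.52 ± 0.38 higher (adjusted p = 1.60e-08).

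BCL2A1, an NF-kB target in lymphoid cells, was low in MM1.S and close to absent in JJN3. In MM1.S it had 8 counts over 3 libraries with the combination, 3 with panobinostat, 123 with CX-5461 and 69 with vehicle. No library with panobinostat exceeded 3 counts, and no library without it had under 20. BCL2A1 was 8.89-fold lower with the combination (95% counting interval 4.27 to 21.4) and 22.7-fold lower with panobinostat (7.44 to 112.6) than with vehicle. It fell under both treatments (adjusted p = 1.16e-06 and 1.16e-07), and its change with CX-5461, 0.48 ± 0.29 on the log2 scale, was not called (adjusted p = 0.264). Intervals of this kind cover counting error only, since they use counts summed over a group and leave out the spread between libraries. The reads also carry no molecular identifiers, so duplicate reads may be counted. JJN3 had 0, 2, 1 and 0 counts for the combination, panobinostat, CX-5461 and vehicle, so a difference between the lines in the drug effect on BCL2A1 was not measurable. BCL2L2 lay at 26, 19, 20 and 24 summed counts in the same order in JJN3, with log2 changes of 0.06 ± 0.66, -0.23 ± 0.69 and -0.25 ± 0.68 for the 3 treatments. In MM1.S it had 6, 10, 6 and 4 counts. The row of the readthrough gene BCL2L2-PABPN1, which overlaps BCL2L2, held 0 counts in every library. That of PABPN1 did too, so the low counts of BCL2L2 are uncertain.

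Among the inhibitor of apoptosis genes, BIRC5 fell most in MM1.S. Its level there was 31.8, 28.7 and 47.6 CPM with the combination, 42.8, 42.2 and 36.7 CPM with panobinostat, 187, 176 and 229.6 CPM with CX-5461, and 193, 206 and 220.3 CPM with vehicle. The groups with panobinostat lay far below the others and overlapped each other, and CX-5461 overlapped vehicle. The log2 fall was 2.51 ± 0.15 with the combination (-2.51, adjusted p = 2.87e-13) and 2.34 ± 0.14 with panobinostat (-2.34, adjusted p = 9.35e-13). In JJN3 it was 161, 162 and 166 CPM with the combination, 211, 207 and 183 CPM with panobinostat, 207, 186 and 232 CPM with CX-5461, and 202, 198 and 216 CPM with vehicle. Only the combination lay below every vehicle library, and BIRC5 fell by 0.34 ± 0.11 there (adjusted p = 0.0202). That call was lost without vehicle replicate 3 (adjusted p = 0.0663), without combination replicate 1 (0.0656), and when libraries were scaled by size alone (-0.23, adjusted p = 0.125). The panobinostat effect was 2.31 ± 0.19 log2 units higher in JJN3 than in MM1.S (adjusted p = 8.62e-11), and the combination effect 2.18 ± 0.19 higher (adjusted p = 2.42e-10).

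XIAP fell in MM1.S to 23.0, 21.7 and 17.0 CPM with the combination and to 21.1, 21.0 and 17.3 CPM with panobinostat, against 34.7, 48.5 and 40.6 CPM with vehicle. The treated libraries did not overlap vehicle, and the log2 change was -0.99 ± 0.15 with the combination (adjusted p = 1.52e-06) and -1.04 ± 0.15 with panobinostat (adjusted p = 7.95e-07). CX-5461 libraries, at 33.5, 31.3 and 31.8 CPM, lay just below those of vehicle, with a log2 change of -0.35 ± 0.14 that was not called (adjusted p = 0.0815). It was called without vehicle replicate 1 (adjusted p = 0.0408) and in a fit of these 2 groups alone (0.0403). In JJN3, XIAP was at 9.96, 13.7 and 10.8 CPM with the combination, 13.8, 20.6 and 14.7 CPM with panobinostat, 11.9, 15.4 and 15.0 CPM with CX-5461, and 13.8, 21.3 and 19.9 CPM with vehicle. The combination fell by 0.69 ± 0.22 (adjusted p = 0.0189), a call lost without vehicle replicate 2 (adjusted p = 0.0588) or 3 (0.0603), without combination replicate 1 (0.0877) or 3 (0.0572), and with scaling by library size (0.0516). The panobinostat effect was 0.88 ± 0.26 higher in JJN3 than in MM1.S (adjusted p = 0.00882). Without panobinostat replicate 3 or vehicle replicate 2 of MM1.S, or vehicle replicate 1 of JJN3, its adjusted p was 0.0579, 0.0642 and 0.0571. The combination effect differed by 0.31 ± 0.26 (adjusted p = 0.396).

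BIRC2 was the member that rose in both lines under the combination together with MCL1. In MM1.S it was at 142, 152 and 139 CPM with the combination, 127, 145 and 134 CPM with panobinostat, 82.2, 86.1 and 79.4 CPM with CX-5461, and 93.6, 93.2 and 85.0 CPM with vehicle. Panobinostat separated the libraries into 2 ranges that did not overlap, and BIRC2 rose by 0.68 ± 0.10 with the combination (adjusted p = 7.24e-07) and 0.59 ± 0.10 with panobinostat (adjusted p = 6.84e-06). In JJN3 it was at 191, 147 and 168 CPM with the combination, 151, 103 and 137 CPM with panobinostat, 129, 113 and 100.1 CPM with CX-5461, and 113, 97.8 and 103 CPM with vehicle. The combination lay above vehicle in every library, and panobinostat overlapped it through replicate 2. The log2 change was 0.68 ± 0.15 with the combination (adjusted p = 0.00140) and 0.31 ± 0.15 with panobinostat (adjusted p = 0.137), which was called with the block (0.30, adjusted p = 0.0145) and without panobinostat replicate 2 (0.43, adjusted p = 0.0400). Neither the panobinostat effect (-0.26 ± 0.18, adjusted p = 0.274) nor the combination effect (0.01 ± 0.18, adjusted p = 0.984) was called different in JJN3 from that in MM1.S.

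CFLAR, the brake on caspase-8 at death receptors, fell in MM1.S with panobinostat. Its level there was 37.5, 38.2 and 39.7 CPM with the combination, 36.1, 60.6 and 35.9 CPM with panobinostat, 181, 192 and 159.8 CPM with CX-5461, and 150.3, 156 and 138 CPM with vehicle. The libraries with panobinostat lay below all others, with replicate 2 of panobinostat alone the highest of them, and CX-5461 lay above vehicle in every library. CFLAR fell by 1.94 ± 0.15 with the combination (adjusted p = 3.00e-11) and by 1.73 ± 0.14 with panobinostat (adjusted p = 1.98e-10), while 0.26 ± 0.13 with CX-5461 was not called (adjusted p = 0.187; 0.0423 in a fit of these 2 groups alone). In JJN3 it was at 51.1, 74.5 and 60.2 CPM with the combination, 84.3, 82.4 and 83.4 CPM with panobinostat, 80.7, 81.6 and 86.8 CPM with CX-5461, and 68.7, 65.0 and 87.2 CPM with vehicle. The combination overlapped vehicle, and its log2 change of -0.26 ± 0.14 was not called (adjusted p = 0.161). It was called with the block (-0.27, adjusted p = 0.0472) and without the 4 libraries numbered 2 (-0.51, adjusted p = 0.0202). The panobinostat effect was 1.92 ± 0.22 higher in JJN3 than in MM1.S (adjusted p = 3.35e-08) and the combination effect 1.69 ± 0.22 higher (adjusted p = 3.59e-07).

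The combination against panobinostat alone in JJN3 gave 0 calls among the 8 members tested, where 0.184% of genes were higher and 0.719% lower. Over all genes, 1611 had an unadjusted p under 0.05, DESeq2 called 262 and limma-voom 93, and scaling by library size split the calls into 59 higher and 56 lower, against 21 and 82. With replicate number as a block, 2 members were higher (MCL1 by 0.25 and BIRC2 by 0.38) and 3 were lower (BIRC5 at -0.29, XIAP at -0.50 and CFLAR at -0.44), with adjusted p-values between 0.00768 and 0.0431, where 5.78% of genes were higher and 6.48% lower.

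Departure from additivity was measured as the combination's log2 change minus the sum of the single-drug changes. In MM1.S, 1 of 8 members departed, lower than the sum, where 1.87% of genes lay above and 3.65% below. It was BCL2L1, with -3.52 observed against a sum of -1.87, a departure of -1.65 ± 0.28 (adjusted p = 0.000426). Its rise with CX-5461 alone was not seen in the presence of panobinostat. MCL1 lay at 0.50 against a sum of 0.91, a departure of -0.40 ± 0.13 that was not called (adjusted p = 0.0653). It was called by DESeq2 (adjusted p = 0.0304), by limma-voom (0.0494), with scaling by library size (0.0374) and without panobinostat replicate 1 (0.0245). CFLAR (-0.47 ± 0.20), BCL2 (-0.42 ± 0.22), XIAP (0.41 ± 0.21) and BIRC2 (0.23 ± 0.14) had departures with adjusted p-values between 0.199 and 0.375. In JJN3, 0 of 8 members departed and 0% of all genes were called, while 564 genes had an unadjusted p under 0.05, DESeq2 called 19 and limma-voom 0. The member nearest to a call there was CFLAR, at -0.60 ± 0.20 (adjusted p = 0.798; 0.0564 with the block, where 0.920% of genes departed).

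**Figure D3:**
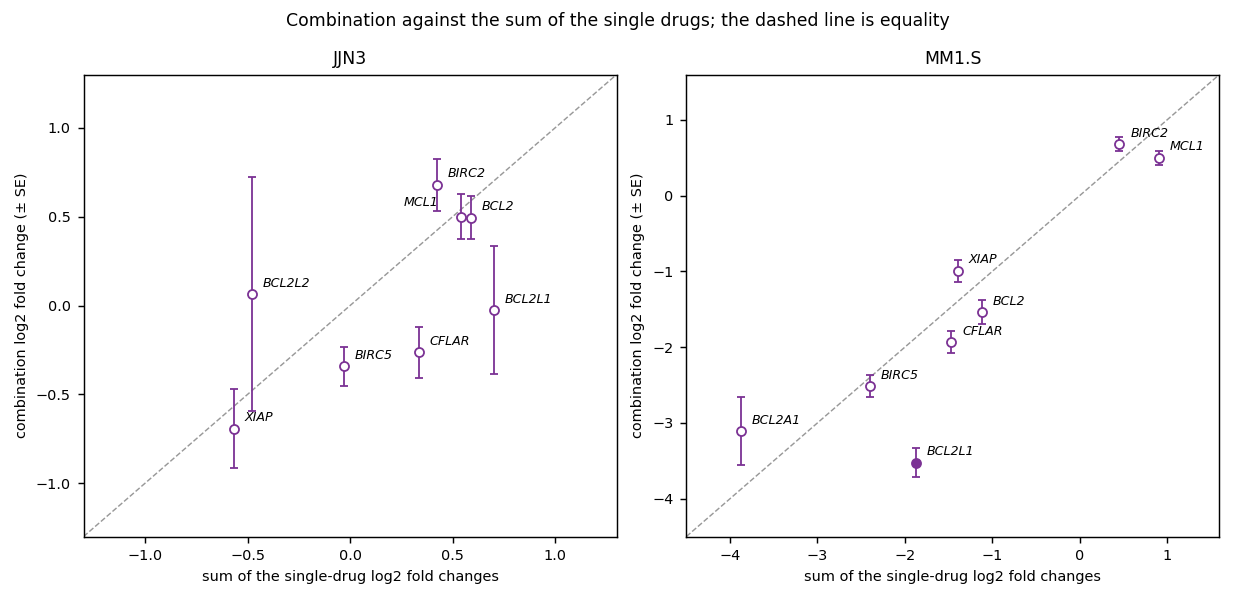
Log2 fold change with the combination (vertical, ± SE) against the sum of the log2 fold changes with each drug alone (horizontal), JJN3 left and MM1.S right, 1 point per gene tested; the dashed line marks equality and filled points an adjusted p under 0.05 for the departure. BCL2L1 in MM1.S lies 1.65 log2 units below the line.

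Set side by side, the drug effects differed between the lines for panobinostat and the combination. For CX-5461 alone, 0 of 9 members had an effect that differed in JJN3 from that in MM1.S, where 1.32% of genes did and 1422 had an unadjusted p under 0.05. DESeq2 and limma-voom also called 0 members. The smallest adjusted p was that of BCL2L1, given above. For panobinostat, 5 members with counts in both lines had a higher effect in JJN3 (BCL2, BCL2L1, BIRC5, XIAP and CFLAR) and 1 a lower one (MCL1), where 18.9% of genes were higher and 14.4% lower. Scaling by library size reversed the balance of all genes, to 1994 higher and 2270 lower, against 2433 and 1851. BCL2A1 also passed (adjusted p = 0.00681), but with 2 counts under panobinostat and 0 under vehicle in JJN3 it is not counted here, and it did not pass without the 4 libraries numbered 2 (adjusted p = 0.0580). For the combination, 4 members had a higher effect in JJN3 (BCL2, BCL2L1, BIRC5 and CFLAR) and 0 a lower one, where 18.8% of genes were higher and 14.0% lower. These contrasts share libraries and are not separate evidence.

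Promoters of 4 members are shown, 3 of those that fell in MM1.S with panobinostat and 1 that rose. RefSeq's promoter table on GRCh38.p14 held 6 of the 9 members, namely BCL2, BCL2L1, BCL2A1, XIAP, BIRC2 and CFLAR. Each line runs 5′ to 3′ on the gene's strand, with 250 bases before and 50 after the first start listed. Capitals mark TATAAA, the GC box GGGCGG or, in CFLAR, a GC box that overlaps a match to the NF-kB consensus, each searched on both strands. BCL2L1 (chr20:31723914-31724213, minus strand), BCL2A1 (chr15:79971147-79971446, minus strand) and CFLAR (chr2:201118466-201118765, plus strand) are the 3 shown whose transcripts fell. BIRC2 (chr11:102346964-102347263, plus strand) rose. BCL2 and XIAP fell as well and are not shown. At the first start listed, BCL2 had 0 matches to any of these motifs (70.7% G and C, 31 CpG dinucleotides). XIAP had 1 GC box and no TATAAA or NF-kB match (48.0%, 10 CpG).
BCL2L1 promoter: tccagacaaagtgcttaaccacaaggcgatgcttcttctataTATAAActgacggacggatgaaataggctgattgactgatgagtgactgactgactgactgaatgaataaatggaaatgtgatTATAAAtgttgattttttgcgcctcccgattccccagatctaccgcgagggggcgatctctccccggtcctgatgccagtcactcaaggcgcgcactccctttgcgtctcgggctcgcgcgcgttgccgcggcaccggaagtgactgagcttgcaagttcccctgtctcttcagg
BCL2A1 promoter: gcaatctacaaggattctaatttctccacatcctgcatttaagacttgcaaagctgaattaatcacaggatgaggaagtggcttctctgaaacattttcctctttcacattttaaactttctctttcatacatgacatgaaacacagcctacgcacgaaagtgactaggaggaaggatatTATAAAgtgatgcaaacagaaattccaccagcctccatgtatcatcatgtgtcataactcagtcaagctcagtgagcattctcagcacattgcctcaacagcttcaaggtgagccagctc
CFLAR promoter: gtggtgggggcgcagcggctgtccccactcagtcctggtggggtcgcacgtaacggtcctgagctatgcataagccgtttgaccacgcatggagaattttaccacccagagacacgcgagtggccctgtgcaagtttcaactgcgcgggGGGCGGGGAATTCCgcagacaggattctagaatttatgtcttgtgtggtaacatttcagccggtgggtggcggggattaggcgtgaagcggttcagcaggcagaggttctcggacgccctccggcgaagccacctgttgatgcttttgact
BIRC2 promoter: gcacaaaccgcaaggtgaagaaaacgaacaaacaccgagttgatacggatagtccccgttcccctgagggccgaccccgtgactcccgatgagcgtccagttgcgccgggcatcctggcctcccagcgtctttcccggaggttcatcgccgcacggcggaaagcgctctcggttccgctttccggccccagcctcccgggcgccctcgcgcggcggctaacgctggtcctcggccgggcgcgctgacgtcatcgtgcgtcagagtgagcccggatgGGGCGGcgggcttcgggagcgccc
The G and C content was 52.0% for BCL2L1, 41.0% for BCL2A1, 58.7% for CFLAR and 68.7% for BIRC2, with 20, 2, 21 and 40 CpG dinucleotides, against a median of 58.7% and 14 over 35116 promoters. Of all promoters, 11.5% held TATAAA, 45.0% the GC box and 5.91% the NF-kB consensus. The genes that fell had both CpG-poor and CpG-rich promoters. Which start the cells used was not measured, and a match is a description of the letters only.

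The partners of these genes were read from lists by function. Their JJN3 values are from the fit without the replicate block, and how the block changes them is not given. Of 11 pro-apoptotic BCL2 family genes 9 were tested in each line. In MM1.S, 6 rose and 0 fell with CX-5461, with a median log2 change of 1.16, against 0.01 over all tested genes, of which 9.68% rose and 7.06% fell. The 4 with the smallest adjusted p were the BH3-only genes BBC3 (2.49 ± 0.11, adjusted p = 1.54e-14), PMAIP1 (2.71 ± 0.27), BMF (1.00 ± 0.13) and the effector BAX (1.52 ± 0.35, adjusted p = 0.00708). BBC3 encodes PUMA, and PMAIP1 encodes NOXA, which binds MCL1. BBC3 was at 195 ± 8.20 CPM with the combination, 136 ± 6.81 CPM with panobinostat, 451 ± 40.8 CPM with CX-5461 and 80.3 ± 12.6 CPM with vehicle. With panobinostat 5 rose and 2 fell in MM1.S, among them BMF (1.46 ± 0.13) and BID (-2.28 ± 0.14), and with the combination 5 rose and 2 fell. Over all genes 36.9% rose and 32.9% fell with panobinostat, and 37.0% rose and 33.2% fell with the combination. In JJN3, 0 changed with CX-5461, where 0 of all 11411 tested genes were called. With panobinostat 3 rose and 1 fell there (BMF 1.10 ± 0.14, HRK 5.00 ± 0.80, BCL2L11 0.46 ± 0.16 and BID -1.05 ± 0.15), and the same counts held for the combination. Over all genes in JJN3 15.0% rose and 10.9% fell with panobinostat, and 21.0% rose and 18.2% fell with the combination. The list's medians there were below 0, at -0.25 with panobinostat and -0.19 with the combination. The CX-5461 effect was lower in JJN3 than in MM1.S for BBC3 (-2.80 ± 0.23, adjusted p = 6.49e-09) and PMAIP1 (-2.68 ± 0.34), the 2 of 9 called, where 1.32% of genes differed in either direction.

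BIRC5 had company in the mitotic list. Of its 23 genes, 0 rose and 20 fell with panobinostat in MM1.S, with a median of -1.39, and 0 rose and 22 fell with the combination, with a median of -1.67. The shares of all genes that fell were 32.9% and 33.2%, and the medians of all genes 0.07 and 0.06. FOXM1, a transcription factor of the G2 and M phases, fell by 3.25 ± 0.13 with panobinostat (-3.25), and AURKB, the kinase of the passenger complex to which BIRC5 belongs, changed by -2.53 ± 0.11. In JJN3, 3 rose and 3 fell with panobinostat (median -0.03) and 2 rose and 8 fell with the combination (median -0.24). The panobinostat counts, 13.0% in each direction, lie near the 15.0% and 10.9% of all genes that rose and fell, and those of the combination stand beside 21.0% and 18.2%. AURKB was at 289 ± 37.8 CPM with the combination, 316 ± 15.8 CPM with panobinostat, 408 ± 42.9 CPM with CX-5461 and 446 ± 56.8 CPM with vehicle in JJN3, and at 87.4 ± 5.97, 48.1 ± 1.48, 371 ± 47.4 and 279 ± 9.92 CPM for the same treatments in MM1.S. The panobinostat effect was higher in JJN3 for 22 of 23 and lower for 0, where 18.9% of all genes were higher and 14.4% lower.

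**Figure D4:**
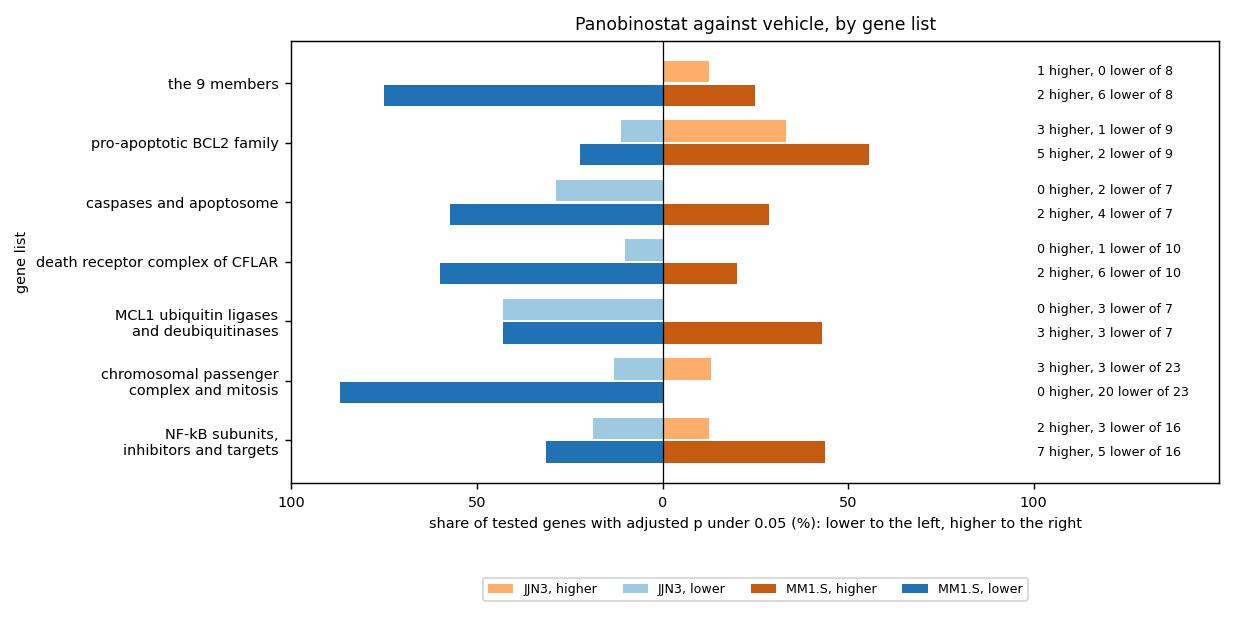
Share of tested genes called lower (left of 0) or higher (right) with panobinostat against vehicle, JJN3 above MM1.S in each pair, with counts at the right. Rows are the 9 members and the lists by function, without that of other inhibitor of apoptosis genes and antagonists. In the mitotic list, 3 rose and 3 fell of 23 in JJN3, and 0 rose and 20 fell in MM1.S. Over all genes, 15.0% rose and 10.9% fell in JJN3, and 36.9% rose and 32.9% fell in MM1.S.

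Around CFLAR, 10 genes of the death receptor complex were tested. With panobinostat in MM1.S 2 rose and 6 fell (median -0.94) and with the combination 2 rose and 7 fell (median -1.02), where 36.9% and 37.0% of all genes rose and 32.9% and 33.2% fell. The TRAIL receptor gene TNFRSF10B rose by 2.35 ± 0.14 with the combination and 1.82 ± 0.14 with panobinostat, while TNFRSF1A, a TNF receptor, changed by -2.56 ± 0.12 and -2.56 ± 0.13, and FADD, the adaptor that recruits caspase-8 and CFLAR, changed by -0.99 ± 0.13 and -0.90 ± 0.13. CX-5461 raised 3 and lowered 1 there, where 9.68% of genes rose and 7.06% fell, with TNFRSF10B at 2.24 ± 0.14 and FAS at 2.49 ± 0.28. In JJN3, 0 rose and 1 fell with panobinostat (FAS, -1.40 ± 0.22), and 0 rose and 2 fell with the combination (FAS -1.91 ± 0.23 and TNFRSF10A -2.29 ± 0.48). The shares that fell, 10% and 20%, lie near the 10.9% and 18.2% of all genes that fell, while 15.0% and 21.0% of all genes rose. The panobinostat effect on TNFRSF10B was lower in JJN3 than in MM1.S (-1.89 ± 0.26, adjusted p = 1.12e-06).

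Of 7 genes listed as ligases and deubiquitinases of MCL1 protein, among them DESI1, which is known as a desumoylating peptidase, 3 rose and 3 fell in MM1.S with panobinostat, 42.9% each way, near the 36.9% and 32.9% of all genes. USP9X, which stabilises MCL1, rose by 0.95 ± 0.11, and USP13, also a deubiquitinase of MCL1, fell by 2.87 ± 0.14 (-2.87). In JJN3, 0 rose and 3 fell (DESI1, USP13 and FBXO4), where 15.0% of genes rose and 10.9% fell. Of 7 caspase and apoptosome genes, 2 rose (APAF1 by 2.90 ± 0.46 and CASP9 by 1.24 ± 0.21) and 4 fell in MM1.S with panobinostat, which is 28.6% and 57.1% beside the same background. In JJN3 0 rose and 2 fell (CYCS and CASP6), where 15.0% of all genes rose and 10.9% fell. Protein levels were not measured.

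BIRC3 (cIAP2), the close relative of BIRC2 and an NF-kB target, was at 132 ± 16.5 CPM with the combination, 171 ± 16.1 CPM with panobinostat, 151 ± 12 CPM with CX-5461 and 81.8 ± 3.17 CPM with vehicle in MM1.S. It rose in all 3, by 0.70 ± 0.11, 1.07 ± 0.11 and 0.89 ± 0.11 on the log2 scale. In vehicle JJN3 it was 3.37 ± 0.14 log2 units higher than in vehicle MM1.S (adjusted p = 3.78e-19), and it rose with the combination (0.50 ± 0.14) and with panobinostat (0.55 ± 0.14). Of 7 other inhibitor of apoptosis genes and antagonists, 3 passed the filter in JJN3 and 2 in MM1.S, and BIRC3 was the only one called against vehicle. Over all genes in MM1.S, 37.0% rose with the combination, 36.9% with panobinostat and 9.68% with CX-5461. In JJN3, 21.0% rose with the combination and 15.0% with panobinostat. In the list of 16 NF-kB subunits, inhibitors and targets, which includes BIRC3, 8 rose and 0 fell with CX-5461 in MM1.S (median 0.56), where 9.68% of genes rose and 7.06% fell, led by RELB (1.43 ± 0.11). With panobinostat 7 rose and 5 fell there, which is close to the 36.9% and 32.9% of all genes. NFKB1 fell in both lines (-1.17 ± 0.16 in JJN3 and -2.30 ± 0.14 in MM1.S).

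The genes most like each member were found by Pearson correlation of log2 CPM centred on each line's mean, over the 24 libraries and 8568 candidate genes, which share those libraries and their groups. BCL2 was nearest to DUSP4 (0.97) and MCL1 to SUN1 (0.94). BCL2L1 was nearest to PVRIG (0.96), followed by SULF2 and the myeloma surface antigen gene SLAMF7, and BCL2A1 to TAFA5 (0.96). BIRC5 was nearest to CLN3, TPX2 and POU2AF1 (each 0.98), of which TPX2 is a spindle assembly factor on the mitotic list and POU2AF1 a plasma cell marker. CFLAR was nearest to IGF1 (0.98), XIAP to NUFIP2 (0.91), and BIRC2 to SNX1 (0.97). For BCL2L2, at the counts given, the nearest was ZNF740 (0.77).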

How the data were processed

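RNA of JJN3 and MM1.S cells was sequenced by the authors from polyA-selected TruSeq libraries as 3′ RNA-seq, per the labels' protocols. For each line the authors deposited raw gene counts, whole reads without normalisation, keyed by NCBI gene number. HISAT2 2.2.1, featureCounts 2.0.1, limma 3.50.0 and the builds hg19 and GRCh37 are named per the submitters' processing notes, with no role. Annotation and strand setting were not given in the sources used here, so reads of overlapping antisense genes cannot be told apart. Symbols came from RefSeq's gene table (GRCh38.p14, names only), with 27745 of 28395 numbers matched. The other 650 held at most 0.0387% of a library's counts.

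Genes were kept with edgeR 4.0.16's filterByExpr, scaled by TMM and fitted with the robust quasi-likelihood model (R 4.3.3), using 4 group means over the 12 libraries of a line, or 8 group means over all 24 for contrasts between lines. Tests were 2-sided, and p-values were Benjamini-Hochberg adjusted over all genes tested (threshold 0.05), and the SE is the log2 change divided by the square root of F. A fit was checked on simulated data. Alternatives were DESeq2 1.42.0, limma-voom (limma 3.58.1), other scalings, no filter, a replicate block, fits of 2 groups alone and each library left out. Leaving out all 4 JJN3 libraries numbered 2 was chosen after the data were seen. For 2 JJN3 libraries 1 label field gives another compound number than the title, and the title was used. In JJN3 the numbers pair the libraries (all 18 same-number pairs above a correlation of 0.1). All 9 members are named, with up to 4 genes per list by smallest adjusted p and the 3 genes most like each member. Some results are not reported here. The members and lists were chosen with earlier results of these data known.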

Additional observations from a re-analysis of the deposited data

Results flagged for a closer look

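The drug effect differed between JJN3 and MM1.S, by the test of that difference in the 24-library edgeR fit (Benjamini-Hochberg adjusted), for the members listed here, and each value is the log2 effect in JJN3 minus that in MM1.S. For panobinostat the differences were 1.78 for BCL2, 3.20 for BCL2L1, 2.31 for BIRC5, 0.88 for XIAP, 1.92 for CFLAR and -0.61 for MCL1. For the combination they were 2.05 for BCL2, 3.52 for BCL2L1, 2.18 for BIRC5 and 1.69 for CFLAR. For BCL2 and MCL1 the vehicle level was higher in JJN3, and for BCL2L1, XIAP and CFLAR it was higher in MM1.S. The lines cannot be told apart from their count tables.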

How the results depend on the processing

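Of 116 member values tested, 44 were called. Over 1754 values under the alternatives run, called values kept their call in 624 and lost it in 22, spread over 7 results, 25 calls were gained, and 0 called values changed sign. Counts of members called moved as follows. Departures in MM1.S were 2 with library size scaling, DESeq2, limma-voom and the replicate block, and 1 to 3 with a library left out. Combination against panobinostat in MM1.S gave 1 by limma-voom and 0 to 3 with a library left out. CX-5461 in MM1.S gave 1 to 2 with a library left out and 3 in a fit of 2 groups. In JJN3, the combination gave 3 with library size scaling, 6 with the block and without the libraries numbered 2, and 3 to 6 with a library left out, panobinostat 3 with the block and 1 to 2 with a library left out, CX-5461 gave 1 with the block, and combination against panobinostat 5 with the block. Between lines, panobinostat differences, 7 with BCL2A1, gave 6 to 7 with a library left out and 6 without the JJN3 libraries numbered 2, combination differences 5 by limma-voom, against 4 (BCL2A1, adjusted p = 0.00842), and vehicle differences 8 with the block and 6 to 7 with a library left out, against 7. The JJN3 block is the paired fit. In MM1.S, where 6 of 18 same-number pairs correlated above 0.1 (-0.0474 to 0.290), the numbers name libraries only. The block changed no other member count there, and over all genes gave 925 calls for combination against panobinostat, against 491, and 1023 departures, against 664. Under the JJN3 block the calls over all genes were 157 for CX-5461, 4784 for panobinostat, 1399 for combination against panobinostat and 105 departures, against 0, 2964, 103 and 0. Differences in CX-5461 effect were 582, against 170. Without the filter CX-5461, combination against panobinostat and departures in JJN3 gave 31, 439 and 46, and the CX-5461 differences 310. DESeq2 gave 262 for combination against panobinostat in JJN3, and 68 were left without the libraries numbered 2. With 1 library left out, counts ran from 1347 to 1756 for CX-5461 in MM1.S (against 2014), from 175 to 1177 for combination against panobinostat and from 415 to 1042 for departures there, and in JJN3 from 1957 to 2950 for panobinostat and from 0 to 105 for combination against panobinostat. Library size scaling shifted the median log2 change of all genes by 0.14 for panobinostat and 0.17 for the combination in MM1.S, by 0.11 for the combination in JJN3 and by -0.13 for the panobinostat difference, and split the calls for CX-5461 in MM1.S into 1544 higher and 509 lower, against 1165 and 849, and for the combination in JJN3 into 2943 and 1539, against 2400 and 2072. Depth limits BCL2L1 in JJN3, BCL2A1 and BCL2L2.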

Other observations

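BCL2L10, an anti-apoptotic family member outside the set of 9, had 4, 3, 19 and 21 counts over 3 libraries of JJN3 with the combination, panobinostat, CX-5461 and vehicle, and 1, 2, 1 and 1 counts in MM1.S. Among the plasma cell markers, TNFRSF17, the receptor BCMA, was at 2.80 CPM with the combination, 3.88 CPM with panobinostat, 309.7 CPM with CX-5461 and 471 CPM with vehicle in MM1.S, and at 25.7, 57.5, 118 and 93.5 CPM for the same treatments in JJN3. The fibroblast collagen gene COL1A1 was at 16.7 and 13.2 CPM with the combination and panobinostat in MM1.S, against 0.241 CPM with vehicle, and the epithelial gene EPCAM at 7.58 to 18.5 CPM over the 4 groups of JJN3. These values belong to no comparison above.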
